A study of Mus musculus with 24 samples.

Results

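Metalloproteinases and their inhibitors were described in sorted mouse mammary epithelial cells. The set comprised every gene whose symbol starts with Mmp or Adam and a number, every numbered Adamts gene, and Timp1 to Timp4. It held 78 of the 19937 genes tested, namely 34 ADAM, 22 MMP, 18 ADAMTS and 4 TIMP genes. Cells came from mice of mixed FVB/C57BL6 background, taken 4 weeks after tamoxifen. All mice carried Lgr5-creERT2, a Cre recombinase that tamoxifen activates in cells expressing Lgr5. The mutant mice also carried the PIK3CA H1047R transgene, an activated form of the catalytic subunit of phosphoinositide 3-kinase, and the controls did not. The labels call the tissue preneoplastic mammary gland. Glands of 2 to 3 estrus-synchronised mice were pooled per genotype in 3 independent sortings, and RNA of 250 cells per sample was amplified for Affymetrix arrays. There were 24 arrays in 8 groups of 3. In control and in mutant mice, CD45-negative cells were sorted as basal GFP-negative and basal GFP-positive (CD24 low, Sca1-negative) and as luminal Sca1-negative and luminal Sca1-positive (CD24 high). GFP marked cells expressing Lgr5, the transgene or both. Luminal cells were sorted as GFP-positive from mutant mice but as GFP-negative from controls, and genotype and GFP state cannot be told apart there. GFP-positive basal cells of the control can be marked through Lgr5 alone, so that gate also differs between genotypes.

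Matrix metalloproteinases (MMPs) are zinc proteases that cut collagens and other proteins of the extracellular matrix. ADAM proteases are mostly membrane-bound and release the outer parts of growth factors and receptors, while ADAMTS proteases are secreted and cut proteoglycans and procollagens. Tissue inhibitors of metalloproteinases (TIMPs) block their active site, and the balance of both is known for its part in the branching and involution of the mammary gland.

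The arrays had medians of 4.39 to 4.55 on the log2 scale, and arrays of 1 group correlated at 0.934 to 0.979 over all genes. The basal and luminal labels were checked against their markers. The mean of 6 basal markers lay at 10.21 to 10.90 in the arrays of the 4 basal groups and at 5.36 to 7.36 in those of the 4 luminal groups. Within the luminal groups it was 6.80 to 7.36 in mutant Sca1-negative arrays against 5.46 to 5.58 in their controls. Ptprc, which encodes the sorted-out CD45, had group means of 4.06 to 4.36, near the floor of the array. Other leukocyte markers were not all low. S100a8 had a mean of 10.67 and Cd68 of 8.28 in mutant luminal Sca1-negative cells, against 7.60 and 6.76 in their controls. In Sca1-positive cells they had means of 6.18 and 7.15 in the mutant and 4.16 and 6.19 in the control. Cd3e, Itgam, Adgre1, Lyz2 and Csf1r had means of only 3.64 to 4.47 in mutant and control Sca1-negative cells. Among the listed leukocyte markers, S100a8 and Cd68 were thus the raised ones. The mean of 8 leukocyte markers was 5.14 to 5.56 in mutant against 4.52 to 5.09 in control Sca1-negative arrays, and 4.52 to 4.91 in mutant against 4.23 to 4.32 in control Sca1-positive arrays. In the basal arrays it was 4.23 to 4.87. Its part in the luminal results was not tested. A log2 level of 4.66, the median over all genes, is used here as a line under which a gene is called dim and the size of its differences is inexact. Levels of different genes rest on different probes and are not compared with each other.

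Of the 78 genes, 45 were dim in all 8 group means, 12 lay above the line in all 8 groups, and 21 in 1 to 7 groups. The dim class held 25 of 34 ADAM genes, 8 of 18 ADAMTS genes, 12 of 22 MMP genes and 0 of 4 TIMP genes. Among the dim MMPs were Mmp3, a stromelysin with group means of 3.71 to 3.93, Mmp7, matrilysin, at 4.07 to 4.47, and Mmp9, a gelatinase, at 4.08 to 4.31. The 12 genes above the line throughout were Adam9, Adam10, Adam15, Adam17, Adam33, Adamts1, Adamts3, Adamts9, Adamts17, Mmp14, Timp2 and Timp3. At least 1 group mean was above the line for 33 of the 78, or 42.3%, against 58.8% of all genes. An F test over the 8 groups (limma, adjusted p under 0.05) called 22 of the 78, where 25.4% of all genes were called. They were 7 ADAM, 8 ADAMTS, 5 MMP and 2 TIMP genes.

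**Figure D1:**
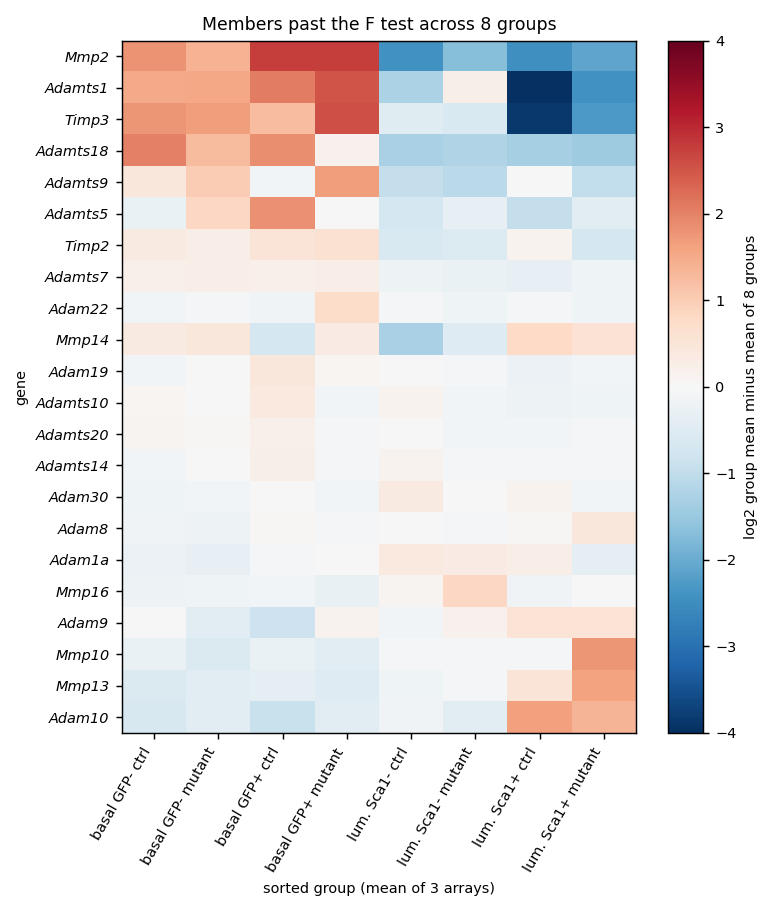
Group means of the 22 genes called by the F test, each as the log2 difference from that gene's mean over the 8 groups (colour, from -4 to 4); rows are genes ordered by luminal minus basal difference and columns are the sorted groups. Mmp2, Adamts1, Timp3 and Adamts18 are highest in the basal groups, and Adam10 is highest in both Sca1-positive luminal groups.

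Timp3, an inhibitor that binds to the matrix and also blocks several ADAM and ADAMTS proteases, differed most among the inhibitors. In control basal GFP-negative arrays its log2 levels were 10.64, 10.82 and 10.15, and in control basal GFP-positive arrays 10.19, 9.92 and 9.86. In control luminal cells they were 8.82, 8.17 and 7.90 in the Sca1-negative gate and 4.63, 5.48 and 4.65 in the Sca1-positive gate. Levels thus fell in order from basal to luminal Sca1-negative to luminal Sca1-positive cells, with no overlap between the 3 kinds of cell. Luminal minus basal was -3.66 ± 0.22 (log2 difference ± SE of the limma fit, adjusted p = 6.15e-10, 3 arrays per group) and Sca1-positive minus Sca1-negative was -3.37 ± 0.31 (adjusted p = 2.24e-06). The luminal Sca1-positive level is near the dim line, so that the second difference is inexact in size.

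In mutant cells Timp3 stood at 9.75, 10.59 and 10.96 in basal GFP-negative arrays and at 11.38, 11.42 and 11.22 in basal GFP-positive arrays. It stood at 8.09, 8.05 and 8.32 in luminal Sca1-negative arrays and at 6.95, 6.10 and 6.32 in luminal Sca1-positive arrays. The mutant arrays were all above the control arrays in basal GFP-positive and in luminal Sca1-positive cells, and overlapped with them in the other gates. Mutant minus control was 1.35 ± 0.31 in basal GFP-positive cells (adjusted p = 0.0109) and 1.54 ± 0.31 in luminal Sca1-positive cells (adjusted p = 0.0179). It was -0.11 ± 0.31 in basal GFP-negative cells (adjusted p = 0.99) and -0.14 ± 0.31 in luminal Sca1-negative cells (adjusted p = 0.923). The effect in Sca1-positive minus that in Sca1-negative luminal cells was 1.68 and did not pass the test (adjusted p = 0.228). Mutant luminal Sca1-positive cells kept a lower level than mutant luminal Sca1-negative cells (-1.70, adjusted p = 0.0029). The call in luminal Sca1-positive cells was lost without control replicate 1, control replicate 3 or mutant replicate 1, and when only these 6 arrays were fitted. Beside it, the mean of 4 luminal progenitor markers was 6.11 to 8.33 in mutant and 5.56 to 5.89 in control Sca1-positive arrays, and its part in the result was not tested.

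Timp2, which also takes part in the activation of MMP2 by MMP14, was lower in luminal than in basal cells by less. The log2 levels in control cells were 9.74, 9.22 and 9.52 in basal GFP-negative, 10.03, 9.54 and 9.36 in basal GFP-positive, 8.88, 8.25 and 8.45 in luminal Sca1-negative and 8.90, 9.36 and 9.55 in luminal Sca1-positive arrays. In mutant cells they were 9.29, 9.49 and 9.41, then 9.998, 9.461 and 9.783, then 9.11, 8.44 and 8.26, and then 8.73, 8.44 and 8.19 in the same order of gates. Control Sca1-positive cells overlapped with basal cells, and mutant Sca1-positive cells did not. Luminal minus basal was -0.67 (adjusted p = 0.0093) in the control and -1.04 (adjusted p = 0.000238) in the mutant. The mutant difference in Sca1-positive cells, -0.82, did not pass the test (adjusted p = 0.2).

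Timp1, an inducible secreted inhibitor, varied widely between replicates. Control levels were 5.64, 3.95 and 4.36 in basal GFP-negative, 5.16, 4.64 and 5.98 in basal GFP-positive, 6.42, 7.67 and 5.05 in luminal Sca1-negative and 6.84, 7.56 and 6.09 in luminal Sca1-positive arrays. Mutant levels were 6.32, 3.87 and 5.29, then 6.51, 6.76 and 5.26, then 6.63, 6.58 and 7.36, and then 7.23, 6.91 and 5.75 in that order. Luminal cells were higher than basal cells in the control (1.65 ± 0.49, adjusted p = 0.0239), with overlapping arrays. That call was lost in 5 of 12 fits that left out 1 array (adjusted p up to 0.0713), namely without replicate 2 of any of the 4 control groups or without basal GFP-negative replicate 3. The same difference in the mutant was 1.08 and did not pass (adjusted p = 0.174). Timp4 had array levels of 4.28 to 4.85 and passed the test in no comparison.

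**Figure D2:**
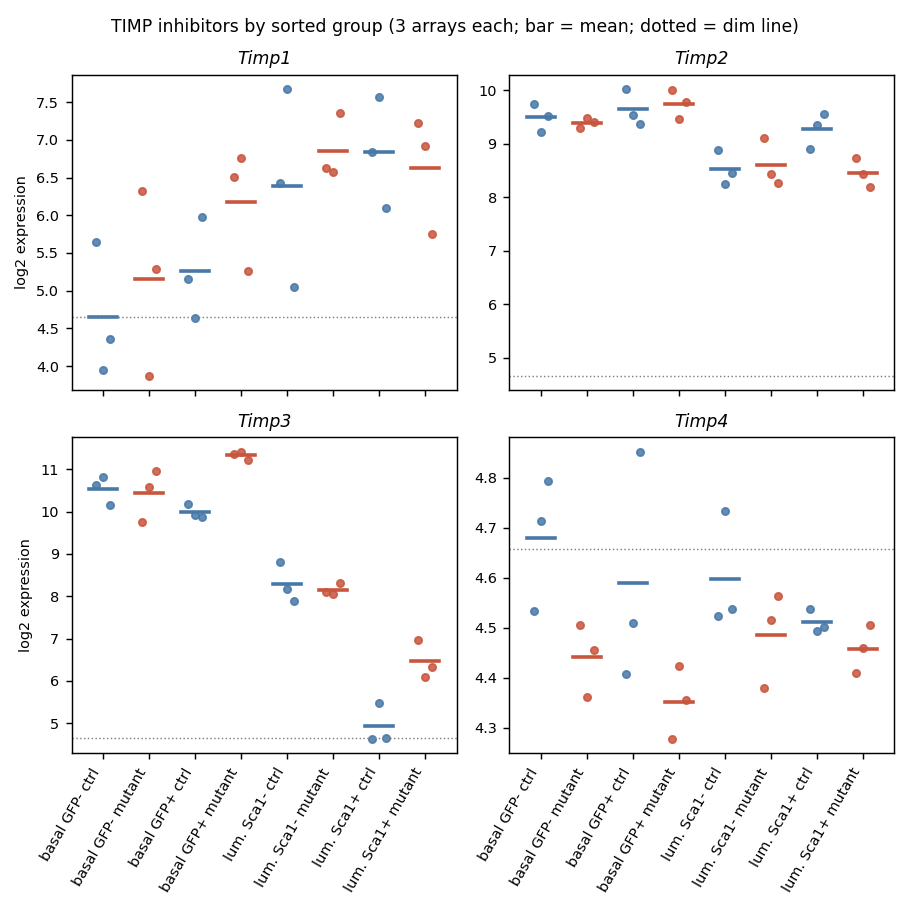
Log2 expression of the 4 TIMP genes by sorted group; points are arrays, bars are means of 3, blue is control, red is mutant, and the dotted line marks a log2 level of 4.66. Timp3 forms 3 steps from basal to luminal Sca1-negative to luminal Sca1-positive control cells, and the mutant Sca1-positive arrays at 6.10 to 6.95 lie above their controls.

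Promoters are shown for Timp3 and Adamts1, which both formed 3 separate levels in the basal cells and the Sca1-negative and Sca1-positive luminal cells of the control, and for Mmp10 and Mmp13, a stromelysin and a collagenase gene highest in the same luminal group. They are RefSeq sequences on GRCm38.p6 from 250 bases before to 50 after the start site, read along the gene. Timp3 lies at chr10:86300162-86300461 (plus strand), Adamts1 at chr16:85803064-85803363 (minus), Mmp10 at chr9:7502092-7502391 (plus) and Mmp13 at chr9:7272264-7272563 (plus). Capitals mark the GC box in Timp3, the TATA box and GC box in Adamts1, and the AP-1, FOXO and TATA box letters in Mmp10 and Mmp13.
Timp3: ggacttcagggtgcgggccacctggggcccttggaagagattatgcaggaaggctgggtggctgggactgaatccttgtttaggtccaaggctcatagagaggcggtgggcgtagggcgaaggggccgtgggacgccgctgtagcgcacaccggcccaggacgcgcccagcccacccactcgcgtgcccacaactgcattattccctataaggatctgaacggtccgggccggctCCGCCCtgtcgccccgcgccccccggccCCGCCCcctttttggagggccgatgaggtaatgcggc
Adamts1: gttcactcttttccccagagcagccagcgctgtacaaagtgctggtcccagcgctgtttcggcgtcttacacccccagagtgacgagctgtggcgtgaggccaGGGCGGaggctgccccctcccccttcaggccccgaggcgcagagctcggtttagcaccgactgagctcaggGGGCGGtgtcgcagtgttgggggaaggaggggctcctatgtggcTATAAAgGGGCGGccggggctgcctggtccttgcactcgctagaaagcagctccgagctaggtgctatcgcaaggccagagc
Mmp10: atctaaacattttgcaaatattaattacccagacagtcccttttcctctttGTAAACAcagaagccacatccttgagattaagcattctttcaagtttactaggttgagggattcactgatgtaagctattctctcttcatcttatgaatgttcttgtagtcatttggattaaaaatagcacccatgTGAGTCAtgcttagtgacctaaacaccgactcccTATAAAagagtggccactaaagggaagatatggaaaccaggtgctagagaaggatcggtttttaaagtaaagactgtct
Mmp13: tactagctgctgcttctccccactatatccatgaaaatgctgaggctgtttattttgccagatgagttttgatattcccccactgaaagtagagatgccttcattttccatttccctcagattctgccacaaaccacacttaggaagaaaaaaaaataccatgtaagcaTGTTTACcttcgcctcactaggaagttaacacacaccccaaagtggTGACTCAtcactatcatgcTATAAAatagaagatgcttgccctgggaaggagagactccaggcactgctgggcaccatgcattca
Letters were searched on both strands. The AP-1 motif was read as TGANTCA, the site of Fos and Jun proteins. FOXO, the motif of the forkhead factors downstream of phosphoinositide 3-kinase, was read as TGTTTAC. For TEAD factors the letters were GGAATG, and those for the ETS family were CCGGAA. The TATA box, a core promoter element, was read as TATAAA, and the GC box of SP factors as GGGCGG. The STAT motif was read as TTCNNNGAA. None of the marked matches overlapped another. Mmp10 and Mmp13 each held AP-1, FOXO and TATA box letters, with AP-1 starting at -63 and -35 from the start site. Promoters were found for 48 of the 78 genes (53 in all) and set beside all 32851 promoters. AP-1 letters stood in 24.5% of the 53 and 7.81% of all, FOXO letters in 9.43% and 3.65%, and the TATA box in 28.3% and 13.6%. The GC box stood in 39.6% and 35.7%, STAT letters in 9.43% and 8.3%, TEAD letters in 7.55% and 14.7%, and ETS letters in 5.66% and 14.9%. The 13 genes with AP-1 letters included Mmp13, Mmp12, Mmp1b, Mmp3, Mmp1a, Mmp10, Mmp20 and Mmp7. All of these named genes lie in 1 run on chromosome 9 and also held TATA box letters. The AP-1 and TATA shares thus do not rest on independent promoters. Of the named genes, Mmp1b, Mmp3, Mmp1a, Mmp20 and Mmp7 were dim in all 8 group means. GC content was 67% in Timp3, 64.7% in Adamts1, 37.7% in Mmp10 and 43.7% in Mmp13. Letter matches describe the window and are not binding sites.

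In control mice, 18 of the 78 genes differed between luminal and basal cells, 5 higher and 13 lower in luminal cells, where 19.3% of all genes were called (9.85% up and 9.4% down). In mutant mice 5 were higher and 8 lower, where 15.4% of all genes were called (8.23% up and 7.18% down). The median log2 difference of the 78 was -0.05 in the control and -0.01 in the mutant, against -0.04 and 0.02 for all genes. Fitting only the control arrays of this comparison left 10 called.

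Mmp2, gelatinase A, had the largest difference of the control comparison. Its control levels were 8.34, 8.91 and 8.43 in basal GFP-negative and 9.52, 9.27 and 9.71 in basal GFP-positive arrays, and 4.09 to 4.50 in all 6 luminal arrays. Every basal array was above every luminal one, and luminal minus basal was -4.73 ± 0.19 (adjusted p = 3.11e-12). In the mutant, levels of 7.33 to 9.80 in basal cells stood against 4.51 to 5.21 in luminal cells (-3.99, adjusted p = 4.39e-11). Since the luminal level is at the dim line, these sizes are inexact. Of the fibroblast markers measured beside it, Pdgfra and Lum had means of 4.03 to 4.20 and 3.37 to 3.46 over the 8 groups, under the dim line, while Dcn ranged from 6.72 to 11.53. The mean of all 7 fibroblast markers was 4.70 to 5.23 in control basal arrays and 5.11 to 5.31 in control luminal arrays. In the mutant it was 4.74 to 5.06 in basal GFP-negative, 5.30 to 5.52 in basal GFP-positive, 4.44 to 4.75 in luminal Sca1-negative and 4.76 to 5.08 in luminal Sca1-positive arrays. The mean of 5 pericyte markers was 4.82 to 5.16 in control basal and 4.38 to 4.52 in control luminal arrays. Mcam accounted for most of that gap. Its control means were 8.287 in basal GFP-negative and 8.342 in basal GFP-positive cells. They were 5.998 in luminal Sca1-negative and 6.088 in luminal Sca1-positive cells. Pdgfrb, Rgs5, Cspg4 and Des had means of 3.855 to 4.549 in the control groups, under the dim line, and differed little. The part of the fibroblast or pericyte markers in the Mmp2 levels was not tested. In sorted bulk samples, fewer cells of a type and less RNA per cell cannot be told apart.

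Adamts1, a protease of versican and aggrecan, was high in basal cells. In the control it stood at 10.74, 10.65 and 10.78 in basal GFP-negative, 11.33, 11.25 and 11.22 in basal GFP-positive, 8.44, 6.88 and 8.52 in luminal Sca1-negative and 5.27, 4.94 and 4.98 in luminal Sca1-positive arrays. In the mutant it stood at 10.32, 10.80 and 11.12, then 11.82, 11.63 and 11.70, then 9.71, 8.81 and 9.82, and then 8.46, 6.42 and 5.49. As with Timp3, basal, luminal Sca1-negative and luminal Sca1-positive control cells formed 3 separate levels. Luminal minus basal was -4.49 ± 0.37 in the control (adjusted p = 5.37e-08) and -3.11 in the mutant (adjusted p = 6.97e-06). Mutant luminal arrays all lay above their controls, but mutant minus control, 1.502 ± 0.53 in Sca1-negative (adjusted p = 0.268) and 1.73 ± 0.53 in Sca1-positive cells (adjusted p = 0.22), did not pass the test. The Sca1-positive difference ranged from 0.89 to 2.38 when 1 array was left out, and passed without mutant replicate 3 (2.38, adjusted p = 0.0283). The basal markers Krt5 and Krt14 were also higher in mutant luminal Sca1-negative cells, by 3.29 and 2.46 (adjusted p = 0.000572 and 0.00571). There, mutant and control means were 7.60 and 5.52 for Acta2 and 6.47 and 5.37 for Trp63. They were 4.92 and 4.69 for Oxtr, and Mylk was lower in the mutant, at 5.50 and 5.76. In Sca1-positive arrays the mean of the 6 basal markers was 5.36 to 6.78 in the mutant and 5.45 to 5.65 in the control. The part of the basal markers in the Adamts1 values was not tested.

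Adamts18, an orphan secreted protease, was close to the dim line in all luminal arrays, at 4.49 to 4.90. Control basal levels were 8.46, 8.46 and 7.05 in GFP-negative and 7.92, 7.95 and 7.66 in GFP-positive arrays. Luminal minus basal was -3.25 ± 0.31 in the control (adjusted p = 2.89e-07) and -2.04 in the mutant (adjusted p = 9e-05). Other members lower in control luminal cells were Adamts5 (-1.61), an aggrecanase, Mmp23 (-0.85), Adamts4 (-0.82), a further aggrecanase, and Adamts7 (-0.46). Luminal and basal arrays overlapped for Adamts5, Mmp23 and Adamts4. Control means of Adamts5 were 6.77 in basal GFP-positive but 4.66 in basal GFP-negative cells. They were 4.23 in luminal Sca1-negative and 3.98 in luminal Sca1-positive cells. The remaining calls in that direction, Adam19, Mmp17, Adam12 and Adamts20, were at most 0.30 in size, and their means over the 24 arrays were under the dim line.

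Adam10, a sheddase of Notch receptors and ERBB ligands, was the clearest member in the opposite direction. Its levels in Sca1-positive luminal arrays were 9.66, 9.15 and 9.89 in the control and 9.17, 9.01 and 9.72 in the mutant. All other arrays, basal and Sca1-negative luminal of both genotypes, lay between 6.82 and 8.26. Sca1-positive minus Sca1-negative was 1.79 ± 0.28 in the control (adjusted p = 0.000755) and 1.81 in the mutant (adjusted p = 0.000713), and luminal minus basal was 1.52 ± 0.20 in the control (adjusted p = 1.32e-05). Adam9 (0.64), Adam1a (0.49) and Adam30 (0.34) were the other ADAM genes called higher in control luminal cells. Adam30 was dim in luminal and basal cells, and Adam1a in basal cells.

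Between the luminal gates of the control, 2 of the 78 genes were higher and 2 lower in Sca1-positive cells, where 3.69% of all genes were called (2.08% up and 1.61% down). Mmp14, a membrane-bound collagenase that activates pro-MMP2, was the second gene higher. Its control levels were 7.68, 5.95 and 7.41 in Sca1-negative and 9.48, 8.86 and 8.95 in Sca1-positive arrays, with no overlap (2.09 ± 0.34, adjusted p = 0.00132). In the mutant, levels of 7.64, 8.07 and 7.64 stood against 9.177, 8.504 and 8.998, and the difference, 1.11, did not pass (adjusted p = 0.0968). In basal cells Mmp14 lay at 8.140 to 9.002 in control GFP-negative, 7.27 to 7.94 in control GFP-positive, 8.47 to 8.99 in mutant GFP-negative and 8.61 to 8.71 in mutant GFP-positive arrays. The control GFP-positive arrays were thus the lowest of the basal ones. The mutant effect in basal GFP-positive cells, 1.03, did not pass (adjusted p = 0.0552). It passed without control replicate 2 (1.19, adjusted p = 0.0389) and was -0.015 when control basal GFP-negative cells served as the reference.

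In mutant mice 4 genes were higher and 2 lower in Sca1-positive than in Sca1-negative luminal cells, where 3.66% of all genes were called (1.81% up and 1.85% down). The higher ones were Adam10, Mmp10 (1.83, adjusted p = 0.0255), Adam15 (0.85, adjusted p = 0.0289) and Adam8 (0.50, adjusted p = 0.00667). The Adam15 call was lost in 5 of 6 fits that left out 1 array, all but that without Sca1-negative replicate 2 (adjusted p up to 0.161). The Mmp10 call was lost without replicate 1 or 3 of Sca1-negative or replicate 2 or 3 of Sca1-positive cells (adjusted p up to 0.162), and the Adam8 call without Sca1-positive replicate 3 (adjusted p = 0.0509). Mmp10, a stromelysin, stood at 4.89, 7.03 and 7.68 in mutant Sca1-positive arrays and at 4.12 to 5.31 in the other 21 arrays. Replicate 1 was thus within the range of the others, and the other 2 were well above it. Mmp13, a collagenase, stood at 6.78, 6.96 and 5.48 in the same arrays and at 4.48, 6.98 and 4.48 in control Sca1-positive arrays, so 1 control array reached the mutant level. Adam8, a protease of leukocytes and of some carcinomas, stood at 4.64, 4.93 and 4.95 there and at 4.12 to 4.53 in all other arrays, so that only 2 arrays were above the dim line.

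Both genes belong to a run of 10 MMP genes on chromosome 9, with at most 1 other protein-coding gene between neighbours in RefSeq order. The run holds Mmp13, Mmp12, Mmp1b, Mmp3, Mmp1a, Mmp10, Mmp8, Mmp27, Mmp20 and Mmp7. Mmp12, macrophage elastase, was at 4.50, 5.70 and 4.29 in mutant and 4.04, 5.31 and 4.08 in control Sca1-positive arrays, and the other 7 were dim in all 8 group means. Adamts1 and Adamts5 are likewise neighbours, on chromosome 16.

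**Figure D3:**
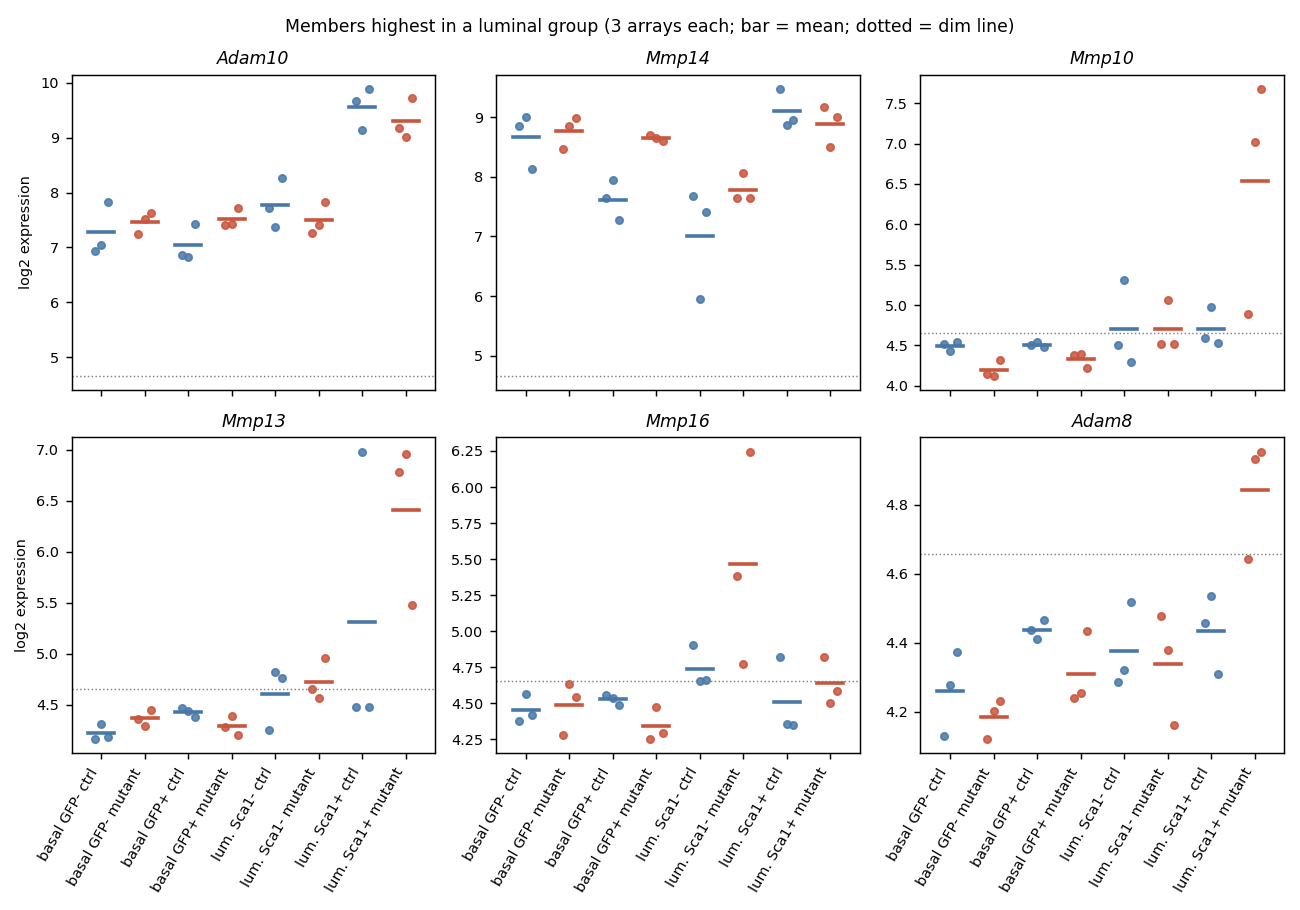
Log2 expression of 6 genes highest in a luminal group; points are arrays, bars are means of 3, blue is control, red is mutant, and the dotted line marks a log2 level of 4.66. Adam10 is high in both Sca1-positive groups, while Mmp10 is high in 2 of 3 mutant Sca1-positive arrays and Mmp13 in 3 of 3 and in 1 of 3 controls.

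The mutant effect was largest in number in basal GFP-positive cells. There 4 of the 78 genes were higher and 6 lower in the mutant, where 12.6% of all genes were called (4.74% up and 7.81% down). The median log2 difference was -0.09 for the 78 genes and -0.10 for all genes. The genes higher in the mutant were Adamts9 (1.79 ± 0.43, adjusted p = 0.0144), Timp3, Adam9 (0.96 ± 0.26, adjusted p = 0.0236) and Adam22 (0.90 ± 0.20, adjusted p = 0.0106). The genes lower were Adamts5 (-1.82 ± 0.42, adjusted p = 0.0129), Adamts18 (-1.68 ± 0.43, adjusted p = 0.0208), and, by at most 0.49, Adamts10, Adam11, Adamts14 and Adamts20. Adamts14 and Adamts20 were dim in both groups, and Adamts10 and Adam11 in the mutant. In all 10 the 3 arrays of one genotype lay above the 3 of the other. Since the test on these same arrays picked them, that adds no support. Members that were not called, among them Adam19 and Mmp14, were separated as well. The count ranged from 3 to 18 when 1 array was left out. It was 3 without mutant replicate 1, 4 without control replicate 1, 5 without control replicate 3, 6 without mutant replicate 2 or 3, and 18 without control replicate 2. Adamts9 and Adamts18 were not called without control or mutant replicate 1, and Adam9 not without control replicate 3 or mutant replicate 1 or 2.

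Adamts9, a protease of versican, stood at 8.27, 7.35 and 7.52 in mutant and 5.59, 6.33 and 5.84 in control basal GFP-positive arrays. GFP-negative basal levels were 6.95, 7.84 and 6.36 in the mutant and 6.19, 6.14 and 7.14 in the control. All 6 of its probe sets were higher in the mutant GFP-positive cells, by 1.20 to 2.75, and 2 passed the test. All 6 were also called lower in luminal than in basal mutant cells (-2.40 ± 0.30 for the one used, adjusted p = 1.28e-05), while the control difference was -0.67 (adjusted p = 0.139). The difference between those differences, -1.73, did not pass (adjusted p = 0.0726).

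Adam9, a membrane-bound sheddase, stood at 7.22, 6.97 and 6.60 in mutant and 6.05, 6.07 and 5.80 in control basal GFP-positive arrays. Adam22, an ADAM without protease activity known from synapses, stood at 5.55, 4.44 and 4.29 against 3.85, 3.81 and 3.91, and 1 of its 3 mutant arrays was clearly above the dim line. Adamts18 stood at 5.41, 6.29 and 6.79 in the mutant.

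Adamts5 had a different order of groups. Its levels were 6.60, 5.82 and 7.88 in control basal GFP-positive and 4.27, 4.91 and 4.80 in control basal GFP-negative arrays. In the mutant they were 4.91, 4.70 and 5.25 in GFP-positive and 5.93, 4.80 and 6.55 in GFP-negative arrays. Control GFP-positive arrays were thus above control GFP-negative and mutant GFP-positive arrays, without overlap. The mutant effect in GFP-positive minus that in GFP-negative cells was -2.91 ± 0.60 (adjusted p = 0.0211), the 1 call of that comparison, which was added after the data had been seen and in which 1.07% of all genes were called, 0.301% as lower. The calls of Adamts5 in GFP-positive cells and between control basal gates were lost without control GFP-positive replicate 3, and the second also without control GFP-negative replicate 1.

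The control basal GFP-positive arrays bear on each of these calls. With control basal GFP-negative cells as reference, 2 of the 78 genes were called in place of 10, namely Adam22 and Adamts18, and the differences of Adamts5 and Adamts14 changed sign to 0.291 and 0.039 (adjusted p = 0.781 and 0.861). Timp3 and Adamts9 kept differences of 0.80 and 1.22 and did not pass (adjusted p = 0.188 and 0.144). The mean of 4 luminal progenitor markers was 6.23 to 6.43 in mutant and 4.72 to 4.97 in control basal GFP-positive arrays. Mutant and control means were 7.36 and 4.14 for Elf5 and 8.12 and 5.75 for Cd14. Kit and Aldh1a3 differed little, at 4.58 and 4.36 and at 5.16 and 5.23. The part of these markers in the results was not tested. The fibroblast marker mean was 5.30 to 5.52 in mutant and 4.70 to 4.91 in control arrays, with Dcn 4.30 higher in the mutant (adjusted p = 0.000901). Col1a2 had means of 6.06 in mutant and 5.59 in control cells. The other fibroblast markers were level or lower in the mutant. Mutant and control means were 5.11 and 5.39 for Col1a1, 4.79 and 4.83 for Col3a1, and 4.04 and 4.20 for Pdgfra. They were 3.43 and 3.65 for Dpt and 3.39 and 3.38 for Lum. The part of the fibroblast markers was not tested either.

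**Figure D4:**
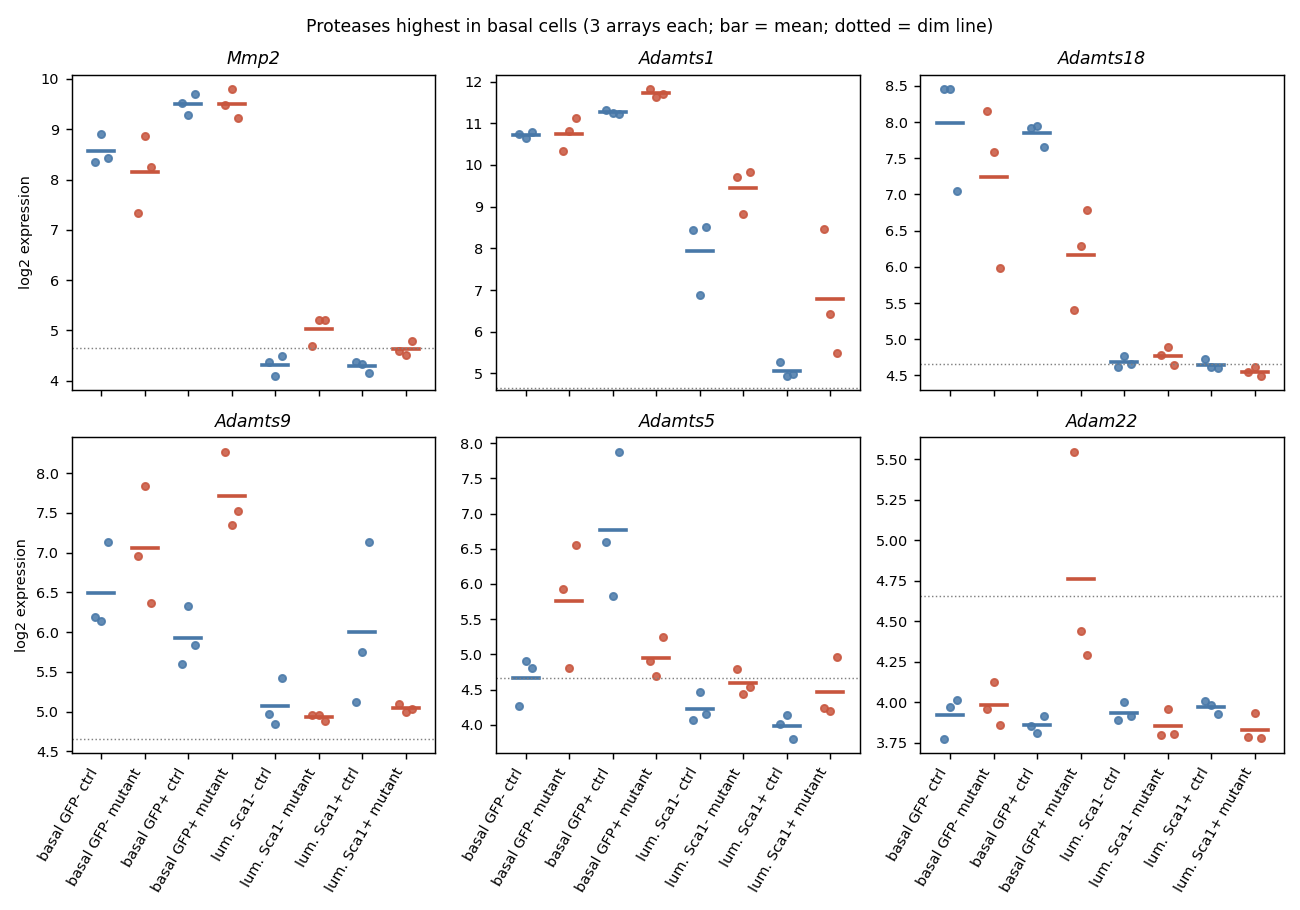
Log2 expression of 6 genes of the set highest in a basal group (Adam22 has no protease activity); points are arrays, bars are means of 3, blue is control, red is mutant, and the dotted line marks a log2 level of 4.66. Adamts9 is highest and Adamts18 lowest in mutant GFP-positive cells among the basal groups, and Adamts5 is highest in control GFP-positive cells.

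In basal GFP-negative cells 0 of the 78 genes were called for the mutant effect by limma, where 0.0602% of all genes were called, and 3 had an unadjusted p under 0.05. Adamts5 had a difference of 1.10 ± 0.42 (adjusted p = 0.711). In luminal Sca1-negative cells 0 were called, where 0.727% of all genes were called, and 8 had an unadjusted p under 0.05. Mmp16, a membrane-bound MMP, stood at 5.38, 4.77 and 6.25 in mutant and 4.90, 4.66 and 4.66 in control arrays, which overlap (0.73 ± 0.24, adjusted p = 0.226). It passed without mutant replicate 2 (1.08, adjusted p = 0.0139). In luminal Sca1-positive cells Timp3 was the 1 gene called, where 0.777% of all genes were called, 0.401% as higher. Mmp10 (1.83 ± 0.44, adjusted p = 0.0738), Adam8 (0.41, adjusted p = 0.0839) and Mmp13 (1.09, adjusted p = 0.537) did not pass there. Without mutant replicate 1, Mmp10 (2.65, adjusted p = 7.07e-06) and Adam8 (0.51, adjusted p = 0.0247) passed. Mmp13 passed without control replicate 2 (1.93, adjusted p = 0.00153).

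**Figure D5:**
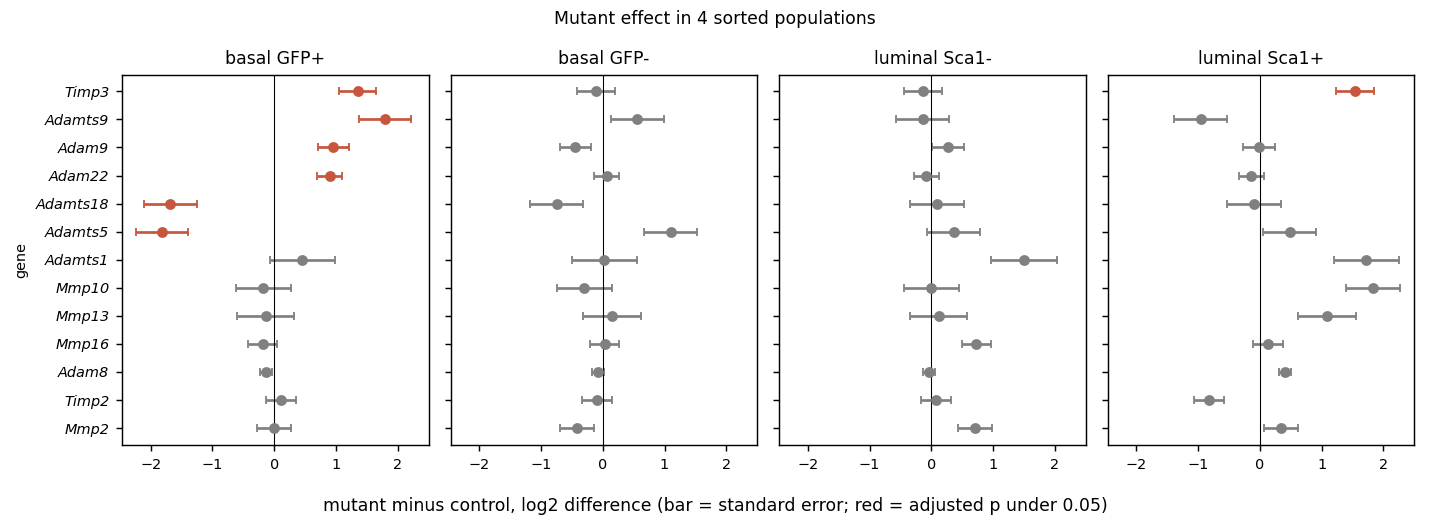
Mutant minus control log2 difference of 13 genes in the 4 sorted populations; points are estimates, bars standard errors of the limma fit, and red marks an adjusted p under 0.05. Timp3 is the 1 gene in red in luminal Sca1-positive cells, at 1.54, and no gene is in red in basal GFP-negative or luminal Sca1-negative cells.

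The effects were also set against each other directly. The luminal minus basal difference in the mutant minus that in the control called 0 of the 78 genes, where 0.782% of all genes were called, with 12 at an unadjusted p under 0.05. The mutant effect in luminal Sca1-negative minus that in basal GFP-positive cells called 0, where 1.03% were called, with 9 at an unadjusted p under 0.05. The effect in luminal Sca1-positive minus that in Sca1-negative cells, a comparison added after the data had been seen, called 0, where 0.161% were called, with 8 at an unadjusted p under 0.05.

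GFP-positive basal cells differed from GFP-negative ones in few members. In the control 3 genes were higher in GFP-positive cells and 0 lower, where 1.25% of all genes were called, 0.507% as higher. They were Adamts5 (2.11 ± 0.42, adjusted p = 0.0228), Adam19 (0.56, adjusted p = 0.0263) and Adamts14 (0.36, adjusted p = 0.0425), and fitting only these 6 arrays called 0. Adam19 (means of 4.34 and 3.78) and Adamts14 (4.475 and 4.118) were dim in both gates, so that these sizes are inexact. Array medians were 4.45 to 4.55 in control GFP-positive and 4.39 to 4.48 in control GFP-negative basal arrays, and their part was not tested. In the mutant 2 genes were higher and 0 lower, where 2.51% of all genes were called, 1.77% as higher. Mmp2 stood at 9.48, 9.80 and 9.23 in GFP-positive and 7.33, 8.86 and 8.26 in GFP-negative mutant arrays, with no overlap (1.36 ± 0.28, adjusted p = 0.00943), and Adam22 was the other (0.78, adjusted p = 0.0499). The Adam22 call was lost without any 1 of the GFP-negative arrays (adjusted p up to 0.152). Beside these, the fibroblast marker mean was 5.30 to 5.52 in GFP-positive and 4.74 to 5.06 in GFP-negative mutant arrays, Dcn had means of 11.11 and 8.98, and Col1a2 of 6.06 and 4.94. The other fibroblast markers differed little, with Col3a1 at 4.79 and 4.62 and Col1a1 at 5.11 and 5.06. Pdgfra was at 4.035 and 4.053, Lum at 3.39 and 3.46 and Dpt at 3.43 and 3.48. Their part in the result was not tested. In the control the Mmp2 difference was 0.94 and did not pass (adjusted p = 0.101), although its arrays did not overlap either. The Mmp2 call in the mutant was lost without mutant GFP-positive replicate 2 and when only these 6 arrays were fitted.

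Other genes of the system were read from a list of 44, of which 41 were measured. In basal GFP-positive cells 7 of the 41 were higher and 2 lower in the mutant, beside 4.74% and 7.81% of all genes. Among them were Vcan, which encodes the ADAMTS substrate versican (3.22 ± 0.57, adjusted p = 0.00224), Cd44, a surface docking partner of MMPs (1.39, adjusted p = 0.0138), and Furin, the convertase that activates many of these proteases (0.87, adjusted p = 0.0219). The ADAMTS-like gene Papln was lower (-1.56, adjusted p = 0.00812). In luminal Sca1-positive cells, where 0.401% of all genes were higher, 2 were higher, Thbs1, which encodes thrombospondin 1 (3.50 ± 0.21, adjusted p = 1.77e-08), and Cd44 (1.73, adjusted p = 0.0128). In luminal Sca1-negative cells, where 0.727% of all genes were called, 3 were higher, among them Tspan33, a tetraspanin that accompanies ADAM10 (1.495 ± 0.30, adjusted p = 0.0196). Between lineages in the control, 6 were higher and 7 lower in luminal cells, beside 9.85% and 9.4% of all genes. The ERBB ligand gene Hbegf (2.67, adjusted p = 4.12e-05), the urokinase receptor gene Plaur (3.30, adjusted p = 4.76e-06) and Rhbdf2, a partner of ADAM17 (1.62, adjusted p = 1.62e-07), were higher. Vcan (-4.63, adjusted p = 1.07e-07), Thbs1 (-2.52, adjusted p = 4.74e-10), Plat (-2.91, adjusted p = 3.13e-06) and the membrane-anchored MMP inhibitor gene Reck (-1.76, adjusted p = 5.87e-05) were lower. Thbs1 was low only in the Sca1-positive gate of the control, with a mean of 5.59. Its control mean was 10.61 in luminal Sca1-negative, 10.94 in basal GFP-negative and 10.30 in basal GFP-positive cells.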

How the data were processed

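The authors deposited a table of log2 values with a row for each probe set and a column for each array. The scale was read from the values, which ran from 2.59 to 13.54. The software affy is named per the submitters' processing notes. The background correction, normalization and summarization are not given in the sources used here. The platform annotation gave exactly 1 symbol to 21640 of 34760 probe sets, and the other 13120 were left out. For genes with several probe sets (3 of the 78), the one with the highest mean over the 24 arrays was used. Adamts2 and Mmp15 were not analysed here.

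A single limma fit (limma 3.58.1, R 4.3.3) gave each of 8 groups its mean, with 16 residual degrees of freedom and one spread for all groups. Tests were two-sided moderated tests, adjusted (Benjamini-Hochberg) over all 19937 genes within each of 10 pair comparisons and 4 differences of effects, 2 of them added after the data were seen. Genes with an adjusted p under 0.05 were called. Each replicate is a pool of mice sorted separately, and p-values measure the spread between such pools. The number of arrays limits the precision. The code was tested on simulated data.

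The members, lists and rule for named genes were chosen with earlier results of these data known. The rule takes all TIMPs, called members by size of difference (up to 10 each way), a fixed set of well-known members, and called genes of the 44-gene list. Alternatives were quantile normalization, leaving out dim genes, averaging probe sets, a replicate block, fitting only the compared groups, another basal reference, and leaving out each array.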

Additional observations from a re-analysis of the deposited data

Results flagged for a closer look

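The mutant effect on Adamts5 differed between the GFP states of basal cells by the test of the difference itself (GFP-positive minus GFP-negative, -2.91 ± 0.60, limma, adjusted p = 0.0211). It was -1.82 in GFP-positive and 1.10 in GFP-negative cells. The call was lost without control GFP-negative replicate 1, mutant GFP-negative replicate 3 or mutant GFP-positive replicate 1 or 2, and in a fit of the 12 basal arrays alone.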

How the results depend on the processing

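Counts of called members (limma, adjusted p under 0.05) moved by over 1.5 times as follows. For the mutant effect in basal GFP-positive cells the count was 10 and became 6 after quantile normalization, 5 once dim genes were dropped, 1 with only the compared groups fitted and 2 with control basal GFP-negative cells as reference. For luminal Sca1-positive cells it was 2 with dim genes left out and 0 with only the compared groups. The gene gained, Mmp10, passed that filter through the tested group (mean 4.77 over all arrays, 4.52 over the 21 outside mutant Sca1-positive cells), so the gain supports nothing. For GFP in control basal cells it was 1 with dim genes left out and 0 with only the compared groups. For GFP in mutant basal cells it was 1 with dim genes left out, 1 with probe sets averaged, 1 in a fit that lacked the GFP-positive basal arrays of the control (an alternative chosen after seeing the data) and 0 with only the compared groups. Fitting only the compared groups gave 10 for luminal minus basal in the control, 1 and 2 for Sca1 in control and mutant, and 0 for the difference of basal mutant effects. The difference of lineage differences called 1 with dim genes left out and 1 with probe sets averaged, and the luminal Sca1-negative minus basal GFP-positive effect 1 with probe sets averaged, Adamts9 each time. Differences that changed sign, all with control basal GFP-negative cells as reference, were Adamts5 (0.291), Adamts14 (0.039) and Mmp14 (-0.015). Leaving out dim genes moved the median of all genes in the basal GFP-positive effect from -0.10 to 0.08. The cause of these changes was not tested, beyond fewer genes or arrays in the fit.

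Leaving out 1 array gave ranges of 3 to 18 (mutant effect in basal GFP-positive), 0 to 1 (luminal Sca1-negative), 0 to 2 (luminal Sca1-positive), 0 to 4 (GFP, control), 1 to 2 (GFP, mutant), 0 to 1 (difference of lineage differences), 0 to 1 (luminal Sca1-negative minus basal GFP-positive effect), 0 to 2 (difference of basal effects) and 0 to 1 (difference of luminal effects). Of 58 called pairs of gene and comparison, 21 were called under every setting run.

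Deviations of same-numbered replicates from their group means, over all genes, correlated at -0.08 to 0.19. In no comparison were all over 0.1, so the numbers were not taken as pairs. No correlations between different numbers were set beside them, so that a shared pool is not excluded. With the replicate block, GFP in mutant basal cells called 1, since Adam22 was lost, and Adamts14 was lost for GFP in control basal cells.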
